A study of Mus musculus with 8 samples.

Results

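The nuclear factor I family consists of the 4 transcription factor genes Nfia, Nfib, Nfic and Nfix, and all 4 were found in the RefSeq annotation of the mouse genome (GRCm38). For each gene, every ATAC-seq peak that overlapped the gene body or the 50 kb on either side was taken from the 4 deposited peak lists. This gave 623 of the 345333 peaks in the lists. When the peaks of the 4 lists were merged at a distance of 10 bp, they formed 247 of the 185271 merged regions on the 21 chromosomes, of which 52 belonged to Nfia, 41 to Nfib, 75 to Nfic and 79 to Nfix.

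ATAC-seq, in which a transposase cuts accessible DNA, was performed on lens epithelium and lens fibers that had been micro-dissected from CD1 mice at embryonic day E14.5 and postnatal day P0.5. Each of the 4 groups (E14.5 epithelium, E14.5 fiber, P0.5 epithelium and P0.5 fiber) had 2 libraries, every one of them made from several pooled lenses, with no treatment or altered allele named. The number of cells used per library differed between the groups. The peaks were called after the 2 libraries of a group had been pooled, so no value per library, no spread between replicates and no test across replicates could be given. Lists were therefore compared only by which regions they called and by the place of a peak within its list. In these bulk samples, fewer cells with open chromatin cannot be told apart from less open chromatin per cell.

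Nuclear factor I proteins bind DNA as dimers through a conserved amino-terminal domain, and their preferred site is a palindrome of TTGGC and GCCAA separated by 5 bases. A single TTGGC element is bound with lower affinity, and the older name CCAAT-box-binding transcription factor recalls an early link to the CCAAT sequence. The family is best known for the timing of glial differentiation in the brain and spinal cord, for lung maturation (Nfib), for tooth root formation (Nfic) and for the switch from embryonic to fetal muscle (Nfix).

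The place of a peak was its rank by fold enrichment within its own list, written as a percent of the length of that list, so that a small percent is a high place. The lists held 100003 peaks (E14.5 epithelium), 123743 peaks (E14.5 fiber), 58592 peaks (P0.5 epithelium) and 62995 peaks (P0.5 fiber). Fold enrichment took only 371, 506, 169 and 102 different values in these lists, and the largest group of tied peaks held 22.1% of the P0.5 fiber list, so places in that list are coarse. A place also depends on the length of its list, so the orders of lists named here are those that were the same when each list was cut to its 58592 strongest peaks, unless said otherwise. Markers were examined as a check of the dissection. Peaks were present within 2 kb of the start sites of 6, 6, 5 and 6 of 6 lens fiber genes, of 5 of 5 lens epithelium genes in every list, and of 0 of 3 keratin genes of cornea and surface ectoderm in any list. Over all protein-coding genes, 70.3%, 71.2%, 67% and 64.6% had a promoter peak, with median places of 7.68%, 6.1%, 12.8% and 10.3%. With so few markers the counts are imprecise. The median places of the fiber genes were 11.2%, 1.71%, 20.5% and 7.06%, higher in the fiber list at each stage, while those of the epithelium genes, at 6.84%, 7.1%, 10.8% and 10.3%, did not separate the tissues. Promoter peaks of retina genes (4, 4, 3 and 1 of 4 in the same order of lists, with median places of 46.8%, 27.2%, 58.5% and 69.2%), of vessel and blood genes (2, 3, 2 and 2 of 4) and of mesenchyme genes (3 of 3 in each list, with median places of 12.5%, 13.1%, 20.5% and 34.7%) were also found, and the part of other cells in the peaks described here was not tested.

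The regions that stood highest at each gene are shown first because the results below return to them. For each gene this was the region called in all 4 lists, more than 2 kb from a curated start site of any gene, whose mean place over the lists was the highest. The mean place was used only to choose what is printed. The 200 bases around its summit (GRCm38, plus strand) are printed with CCAAT or its reverse complement ATTGG in capitals for Nfia, Nfib and Nfic, and with the Maf sequence TGCTGA or its reverse complement TCAGCA in capitals for Nfix.

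Nfia, intron, chr4:97772209-97772408: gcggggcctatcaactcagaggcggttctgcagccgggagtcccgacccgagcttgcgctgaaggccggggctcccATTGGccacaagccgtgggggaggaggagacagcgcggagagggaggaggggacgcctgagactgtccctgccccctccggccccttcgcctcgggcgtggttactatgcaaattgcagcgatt

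Nfib, upstream, chr4:82513203-82513402: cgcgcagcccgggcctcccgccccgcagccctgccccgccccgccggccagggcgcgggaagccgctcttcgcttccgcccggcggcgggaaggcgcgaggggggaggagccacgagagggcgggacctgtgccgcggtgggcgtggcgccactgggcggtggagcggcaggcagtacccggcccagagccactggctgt

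Nfic, upstream, chr10:81432952-81433151: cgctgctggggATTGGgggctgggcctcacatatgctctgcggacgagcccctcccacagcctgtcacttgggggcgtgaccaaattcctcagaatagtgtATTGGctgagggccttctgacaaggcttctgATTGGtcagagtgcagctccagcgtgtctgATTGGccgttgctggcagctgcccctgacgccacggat

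Nfix, upstream, chr8:84815661-84815860: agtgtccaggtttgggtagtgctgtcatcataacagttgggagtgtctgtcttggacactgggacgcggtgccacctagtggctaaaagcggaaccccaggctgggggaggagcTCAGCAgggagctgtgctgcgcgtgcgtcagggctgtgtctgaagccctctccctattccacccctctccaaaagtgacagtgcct

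The Nfia sequence held 1 CCAAT match, the Nfib and Nfix sequences none and the Nfic sequence 4. A CCAAT match need not hold the TTGGC element, and binding by the family was not tested. The CCAAT search was added after the sequences had been seen. Maf was marked in the Nfix sequence only. In the family, Maf matches were close to their share of all merged regions (21.9% against 23.1%). A CCAAT match was present in 21.1% of the family regions (52 of 247) and in 20.8% of all merged regions. Counts of 4 or more were found in 1 family region and in 0.0928% of all merged regions. This cutoff was the count in the printed Nfic sequence, so 1 family region was certain to reach it. Among regions called in 1 list the shares were 28.7% (95% Wilson interval 21 to 37.9) against 20.1%, and among regions called in all 4 lists 33.3% (interval 21 to 48.4) against 26.3%. The remaining family regions, called in 2 or 3 lists, held fewer matches than their background, so no excess was seen over the whole family. The Nfib sequence was the richest in G and C, with 80.5% against 67.5% for Nfia, 60.5% for Nfic and 59% for Nfix.

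The full palindrome was found in 2 of the 247 family regions (0.81%, 95% Wilson interval 0.222 to 2.9) and in 71 of all merged regions (0.0383%), when 200 bp around each summit were searched on both strands. The intervals given here cover counting error only and treat neighbouring regions as independent. Both regions were singled out after the search and are printed with the palindrome in capitals.

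Nfia, intron, chr4:97869244-97869288, plus strand: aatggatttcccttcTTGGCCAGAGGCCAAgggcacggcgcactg

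Nfic window, near Dohh, chr10:81382131-81382175, plus strand: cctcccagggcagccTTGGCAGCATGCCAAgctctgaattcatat

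Neither palindrome lay in a high-placed peak. The Nfia region (chr4:97869070-97869311) was called in the P0.5 epithelium list alone, at 66.3% of that list, and lay 91.6 kb downstream of the nearest curated Nfia start site. The region in the Nfic window (chr10:81382039-81382571) was called in the E14.5 epithelium list alone, at 55.5%, and lay within 2 kb of the start site of Dohh, the gene of deoxyhypusine hydroxylase. The shorter site TTGGCA, of which a palindrome with A after TTGGC is also an instance, was present in 10.1% of family regions and 10.9% of all merged regions. The other sequences searched on both strands were also close to their shares of all merged regions, with 13% against 13.7% for Tead (GGAATG), 21.9% against 23.1% for Maf (TGCTGA), 6.88% against 6.58% for AP-1 (TGANTCA) and 6.48% against 7.04% for Sox (ATTGTT).

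The family peaks made up 0.198% of the E14.5 epithelium list (198 peaks), 0.141% of the E14.5 fiber list (174 peaks), 0.191% of the P0.5 epithelium list (112 peaks) and 0.221% of the P0.5 fiber list (139 peaks). Of the 247 regions, 162 (65.6%) were called in E14.5 epithelium, 167 (67.6%) in E14.5 fiber, 84 (34%) in the P0.5 epithelium list, and 102 (41.3%) in the P0.5 fiber list. The same shares over all merged regions were 49.4%, 66.1%, 28% and 30%. Most family regions were thus seen in an embryonic list, as in the whole series, and the share called in E14.5 fiber was close to the background.

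**Figure D1:**
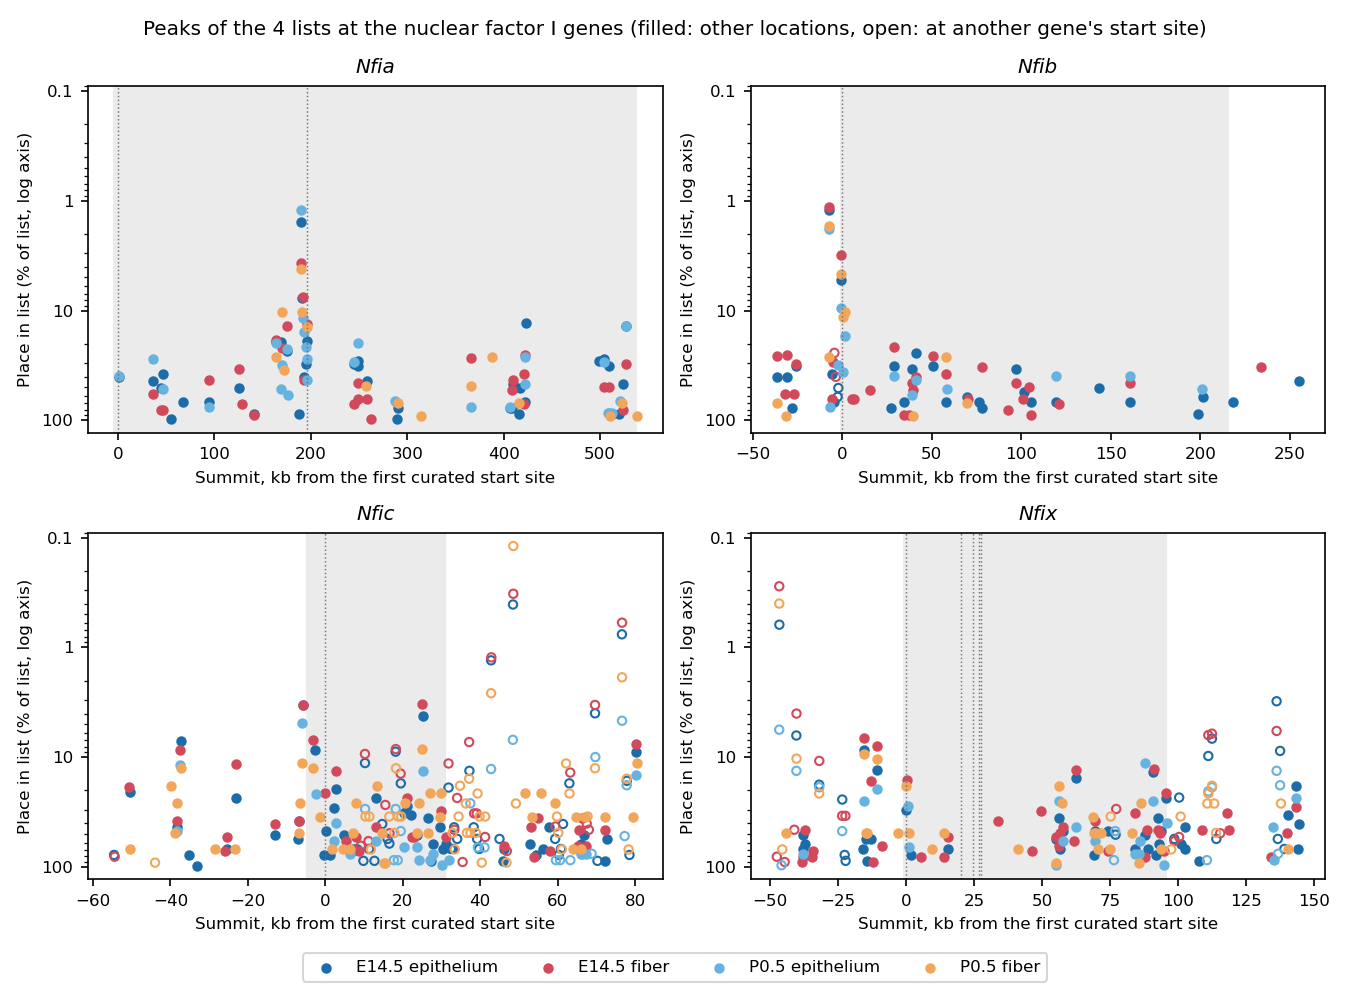
Place of each peak (percent of its list, log axis with high places at the top) against the distance of its summit from the 5′-most curated start site of the gene in kb along transcription, coloured by list, with open points within 2 kb of another gene's start site, the gene body in grey and curated start sites as dotted lines. The highest filled points stood near the downstream start site of Nfia, just upstream of Nfib, and on both sides of the start site of Nfic, while the highest points of the Nfic and Nfix panels were open.

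Nfia spans 541 kb (chr4:97578066-98118876, plus strand) and has 2 curated start sites 196 kb apart, at 97581943 and 97777626. Its 52 regions were almost wholly intragenic, with 51 inside the gene body and none in the upstream flank. The density was 8.11 regions per 100 kb of window, below the median of 10.5 over the windows of all protein-coding genes (percentile 42). The lists held 38 (E14.5 epithelium), 29 (E14.5 fiber), 28 (P0.5 epithelium) and 15 (P0.5 fiber) Nfia peaks, of which 31, 24, 25 and 7 had a q value (the adjusted p of the peak caller) under 0.001. Of all peaks in these lists, 87.9%, 80.5%, 86.7% and 48.9% had such a q value. As shares of their lists, the Nfia peaks were 0.038%, 0.0234%, 0.0478% and 0.0238%, lower in the fiber list at each stage. The 7 of 15 with such a q value in P0.5 fiber were near the share of that list.

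The strongest Nfia region was intronic (chr4:97771810-97772635, the Nfia sequence printed above) and was called in all 4 lists. Its peaks were placed at 1.57% in E14.5 epithelium (rank 1570), 3.67% in E14.5 fiber (rank 4537), 1.21% in P0.5 epithelium (rank 711) and 4.22% in P0.5 fiber (rank 2661). It was placed higher in both epithelium lists than in the fiber list of the same stage. The region lay 5.32 kb upstream of the downstream curated start site, and its summit was 139 bp from a predicted RefSeq start site that is not among the curated transcripts.

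A second region close by (chr4:97773113-97773593) was also called in all 4 lists, at 7.68%, 7.48%, 11.8% and 10.3% in the same order. Here the epithelium and fiber lists differed little. The peak at the downstream start site itself was placed lower, at 18.9%, 13.3%, 21.5% and 14%, and was higher in the fiber list at each stage. The summit of its best peak was 113 to 899 bp from the start site. With predicted transcripts counted as start sites, the promoter places of Nfia became those of the strongest intronic region, 1.57%, 3.67%, 1.21% and 4.22%.

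The other 2 regions called in all 4 lists lay further upstream in the same stretch of introns. The region 25.8 kb upstream of the downstream start site (chr4:97751079-97752201) was placed at 19.5%, 22.1%, 31.6% and 10.3%, and the region 31.6 kb upstream of it (chr4:97745735-97746438) at 19.5%, 18.5%, 19.6% and 26.4%. The former had its highest place in P0.5 fiber. With lists of equal length the places of the latter were 33.3%, 39.1%, 19.6% and 28.4%, so that its order of lists changed. In all, 18 regions lay between the start sites and 34 beyond the downstream one.

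The upstream start site of Nfia had a peak only in the epithelium lists, at 40.6% (rank 40627) at E14.5 and 39.5% (rank 23139) at P0.5. The peaks were small (352 and 411 bp), their summits lay 1173 and 1005 bp inside the gene, and no peak within 2 kb was called in either fiber list. The −log10 q values of 9.36 and 9.12 were well above the threshold of the lists (q of 0.05). This site is also within 2 kb of the start site of E130114P18Rik.

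Of the 52 Nfia regions, 14 (26.9%, interval 16.8 to 40.3) were called only in epithelium lists and 11 (21.2%, interval 12.2 to 34) only in fiber lists, where all merged regions gave 19.8% and 44.4%. Regions called in a single fiber list are counted here too. A further 11 regions (21.2%, interval 12.2 to 34) were called in every list but P0.5 fiber, against 8.42% of all merged regions, and none was missing from P0.5 epithelium alone, against 2.42%. When every list was cut to its 58592 strongest peaks, an alternative chosen after the values had been seen, 4 of 39 Nfia regions (10.3%) were missing from P0.5 fiber alone, against 9.88% of all regions, and the difference from the background was gone. Among the 11 were the intronic regions chr4:98004021-98004649, at 13%, 25.2% and 26.3% in E14.5 epithelium, E14.5 fiber and P0.5 epithelium, and chr4:98108671-98109474, at 13.8%, 31% and 13.9%.

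Nfib spans 217 kb (chr4:82290173-82506751, minus strand) with 1 curated start site at 82505779. It had 13 regions per 100 kb, close to the middle of all genes (percentile 57.1). The lists held 30, 32, 13 and 10 Nfib peaks in the order given for Nfia, of which 29, 28, 13 and 6 had a q value under 0.001. The Nfib peaks were 0.03%, 0.0259%, 0.0222% and 0.0159% of their lists. The 2 leading regions both lay at its 5′ end and were called in all 4 lists.

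The highest peak of any member outside another gene's promoter in both fiber lists and in E14.5 epithelium was the region 7.52 kb upstream of the Nfib start site (chr4:82512262-82513732, the Nfib sequence printed above). It was placed at 1.22% in E14.5 epithelium (rank 1222), 1.14% in E14.5 fiber (rank 1409), 1.82% in P0.5 epithelium (rank 1067) and 1.69% in P0.5 fiber (rank 1064). The 4 places lay within a narrow range, and their order changed with lists of equal length, where they were 2.09%, 2.4%, 1.82% and 1.82%. The region falls within Gm11266, a non-coding gene on the opposite strand, and not within 2 kb of a curated start site.

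With curated start sites, the Nfib promoter was the only one of the family that stood above the median of all promoters with a peak, and it did so in every list. Its places were 5.23%, 3.14%, 9.54% and 4.64% in E14.5 epithelium, E14.5 fiber, P0.5 epithelium and P0.5 fiber, against medians of 7.68%, 6.1%, 12.8% and 10.3%. It was placed higher in the fiber list than in the epithelium list at both stages. The start site of Gm11266 lies within 2 kb of the same peaks. The summits lay 705, 703, 735 and 715 bp upstream of the curated start site, so the same position was strongest in all 4 lists. A predicted start site lies 972 bp upstream of the curated one (82506751), so the summits lay between the curated and this predicted site. At E14.5 the peak was 3160 bp wide in epithelium and 4703 bp wide in fiber, and the best-placed peak was 1197 and 1108 bp wide at P0.5, where 4 and 3 separate peaks were called within 2 kb of the start site.

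Stage was compared by which lists called a region. Of the 41 Nfib regions, 28 (68.3%, interval 53 to 80.4) were called in E14.5 lists only, against 53.6% of all merged regions, so the interval held the background, and 1 (2.44%, interval 0.432 to 12.6) in P0.5 lists only, against 17.6%. More than 10 kb from the start site, 22 of 33 regions (66.7%, interval 49.6 to 80.2) were called in E14.5 lists only, and nearer to it 6 of 8. None was called only in P0.5 fiber, against 12.6%, and 11 (26.8%) were called only in E14.5 fiber, against 29.3%. With equal numbers of peaks in each list, 11 of 22 regions (50%) were called in E14.5 lists only, against 27.3% of all regions, and with a q value under 0.001 these were 29 of 38 (76.3%), against 59.3%. Examples, chosen after their values were seen, were the intronic region chr4:82455018-82455572, at 32.1% of the epithelium list and 26.1% of the fiber list, and the upstream region chr4:82531820-82532177, at 32.1% and 31%. The only intronic Nfib region in all 4 lists (chr4:82447343-82447779) lay 58.2 kb downstream of the start site, at 68.5%, 38%, 52.3% and 26.4%, and was placed higher in the fiber list at both stages.

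**Figure D2:**
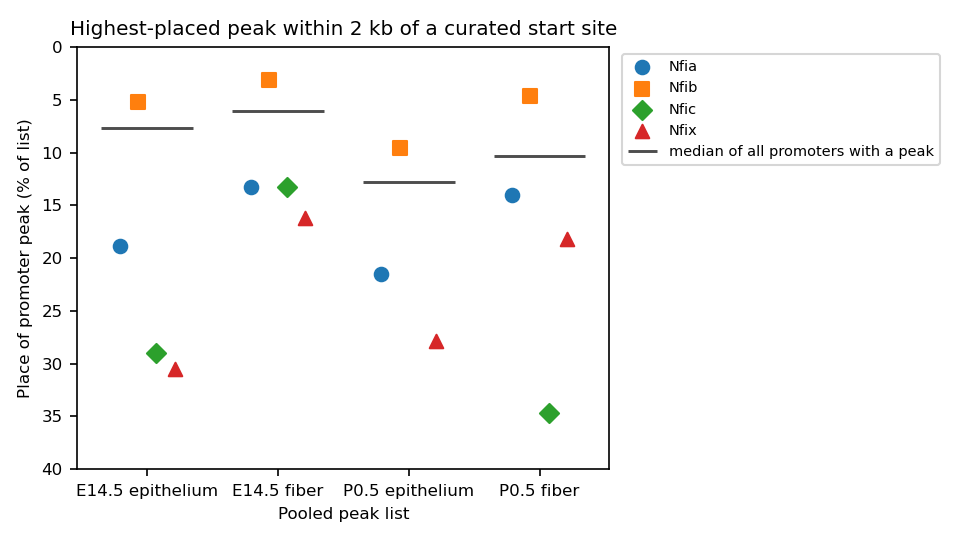
Place of the highest peak within 2 kb of a curated start site (percent of the list, high places at the top) of each gene in each pooled list, with a line at the median over all protein-coding genes that have a promoter peak. Nfib (3.14% to 9.54%) stood above the line in each list and, with curated start sites, the other 3 genes below it, and no peak of P0.5 epithelium lay within 2 kb of the curated Nfic start site.

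Promoter peaks were called for all 4 genes in E14.5 epithelium, E14.5 fiber and P0.5 fiber and for 3 of 4 in P0.5 epithelium. The Nfic peak of P0.5 fiber, 122 bp wide with its summit 1384 bp away, was not within 1 kb of the start site. The share of all 21000 protein-coding genes with a peak at a start site was 70.3% for the E14.5 epithelium list, 71.2% for the E14.5 fiber list, 67% for P0.5 epithelium and 64.6% for P0.5 fiber. The members differed in the places of these peaks more than in their presence. With curated start sites the place of Nfib was the highest of the 4 in each list, whereas with predicted transcripts Nfia stood above it in every list but E14.5 fiber and Nfic in both epithelium lists. With curated start sites, Nfia and Nfic shared the same tied rank (16472) in E14.5 fiber.

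Nfic is the shortest member, at 35.7 kb (chr10:81396191-81431919, minus strand), and its window holds the start sites of 12 other genes, 8 of them protein-coding. The density of 55.3 regions per 100 kb stood at percentile 98.7 of all protein-coding genes. Of the 75 regions, 31 lay within 2 kb of another gene's start site, and 44 did not. Of these 44, 3 lay at the Nfic start site, 13 in the Nfic body, 16 in the body of another gene and 12 in none of these.

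The highest peaks in the Nfic window belonged to its neighbours. The region at Fzr1, an activator of the anaphase-promoting complex, was placed at 0.406%, 0.324%, 6.94% and 0.119% in E14.5 epithelium, E14.5 fiber, P0.5 epithelium and P0.5 fiber. The region at Hmg20b, a chromatin protein gene, was placed at 0.759%, 0.594%, 4.65% and 1.87%. In P0.5 epithelium alone, a region away from other promoters (4.88%, described next) stood above the region at Fzr1. The lists held 77, 59, 38 and 76 peaks in the Nfic window, of which 45, 34, 20 and 40 lay away from other promoters. All peaks of the window were 0.077%, 0.0477%, 0.0649% and 0.121% of their lists.

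Of the regions away from other promoters, the upstream region with 4 CCAAT matches (chr10:81432452-81433488) was placed at 3.36%, 3.31%, 4.88% and 11.4%. It lay 5.88 kb upstream of the curated start site and 1.13 kb from a predicted one, and its lowest place was in P0.5 fiber. The intronic region chr10:81399374-81403639, 25.1 kb downstream of the start site and 4266 bp wide after merging, was placed at 4.21%, 3.24%, 13.3% and 8.49%. It was placed higher in the fiber list at both stages, whereas the upstream region was placed higher in epithelium at P0.5. Between the curated and the predicted start site, the region chr10:81429307-81431735 was placed at 8.62%, 6.99%, 21.5% and 12.6%, and the region 37.4 kb upstream (chr10:81463974-81465290), in the body of another gene, at 7.05%, 8.52%, 11.8% and 12.6%. The order of these last 2 regions between stages changed with lists of equal length, where they were placed at 14.7%, 14.8%, 21.5% and 13.6% and at 12%, 18%, 11.8% and 13.6%.

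The curated Nfic start site at 81427173 was weakly marked. The best peaks within 2 kb were placed at 29%, 13.3% and 34.7% in E14.5 epithelium, E14.5 fiber and P0.5 fiber, with summits 2192, 2788 and 1384 bp away, and no peak was called there in P0.5 epithelium. The region that covers the start site itself (chr10:81426209-81427648) was called only at E14.5, at 46.8% in epithelium and 21.4% in fiber. With predicted start sites included, the promoter places of Nfic became those of the upstream region, including 4.88% in P0.5 epithelium, where the curated start site had no peak. The region over the start site holds an AP-1 match (TGANTCA) centred 13 bp downstream of the start site, shown in capitals with 10 bases on either side because it lies at the start of the gene.

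Nfic, AP-1 match, chr10:81427147-81427173, plus strand: ccgaacttacTGAGTCAtttttgcagc

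Nfic was the member most often called in the newborn fiber. Of its 75 regions, 48 (64%, interval 52.7 to 73.9) were called in P0.5 fiber, where all merged regions gave 30%, and 25 (33.3%, interval 23.7 to 44.6) in P0.5 epithelium, where they gave 28%. Without the regions at other promoters the share in P0.5 fiber was 26 of 44 (59.1%), which has no background without promoters to be set against. With equal numbers of peaks the share was 49 of 58 (84.5%) against 45.5%, and with a q value under 0.001 it was 34 of 66 (51.5%) against 19.9%. In addition, 12 regions (16%, interval 9.4 to 25.9) were missing from P0.5 epithelium alone, against 2.42% of all merged regions, and 1 (1.33%) from P0.5 fiber alone, against 8.42%. A q value under 0.001 was reached by 47 of the 76 Nfic peaks of the P0.5 fiber list, where 48.9% of all peaks reached it, and by 29 of the 38 of the P0.5 epithelium list, where 86.7% did.

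Nfix spans 96.5 kb (chr8:84704712-84801238, minus strand), has 5 groups of curated start sites and shares its window with the start sites of 9 other genes. The density was 40.2 regions per 100 kb (percentile 93.9), and 60 of its 79 regions lay away from other promoters. The lists held 53, 54, 33 and 38 peaks in the window, of which 37, 39, 20 and 25 lay away from other promoters. All peaks of the window were 0.053%, 0.0436%, 0.0563% and 0.0603% of their lists. A peak was called at the 5′-most start site alone (84800368), in all 4 lists, at 30.5%, 16.2%, 27.9% and 18.2% in E14.5 epithelium, E14.5 fiber, P0.5 epithelium and P0.5 fiber. The place was higher in the fiber list at both stages. The other 4 groups of start sites, 84780082 to 84772875, had no peak within 2 kb in any list.

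The leading Nfix regions were upstream. The region 15.4 kb upstream of the start site (chr8:84814954-84816039, the Nfix sequence printed above) was placed at 8.62%, 6.71%, 24.9% and 9.32%, and the region 10.7 kb upstream (chr8:84810714-84811562) at 13%, 7.84%, 19.6% and 10.3%. The former was lowest in P0.5 epithelium, also with lists of equal length. There the latter was at 22.2% of the E14.5 epithelium list, below its place of 19.6% at P0.5, so its lowest place changed. Higher peaks in the window lay at other genes, foremost the region at Calr, the gene of the chaperone calreticulin, at 0.62%, 0.277%, 5.61% and 0.398%. The region at Ier2, an immediate early gene, was placed at 3.09%, 5.76%, 13.3% and 26.4%, so that it stood lower in P0.5 fiber than in the other lists, unlike the region at Calr.

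Of the 79 Nfix regions, 10 (12.7%, interval 7.02 to 21.8) were called in all lists but P0.5 fiber, against 8.42% of all merged regions, so the interval held the background. Given here are 2 intronic ones of these, picked with their values known. The region chr8:84709144-84709601 was placed at 13.5%, 12.9% and 24.9% in E14.5 epithelium, E14.5 fiber and P0.5 epithelium, and chr8:84737603-84738041 at 15.6%, 13.1% and 42.9%. A contrasting intronic region (chr8:84712358-84712747) was placed at 50.8% and 80.6% at E14.5 and at 11.3% in P0.5 epithelium, with no peak in P0.5 fiber. This was the highest Nfix peak of the P0.5 epithelium list away from other promoters. Called in all 4 lists were the intronic regions chr8:84744084-84744414 (35.9%, 64.1%, 24.9% and 18.2%), chr8:84742206-84743082 (46.8%, 42.8%, 58.5% and 26.4%) and chr8:84730438-84731323 (46.8%, 38%, 58.5% and 48.9%). None of the 3 reached the places of the upstream regions in any list except P0.5 epithelium, where the first of them was level with the region 15.4 kb upstream.

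Of the 79 Nfix regions, 32 (40.5%, interval 30.4 to 51.5) were called only in fiber lists and 9 (11.4%, interval 6.11 to 20.3) only in epithelium lists, against 44.4% and 19.8% of all merged regions.

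**Figure D3:**
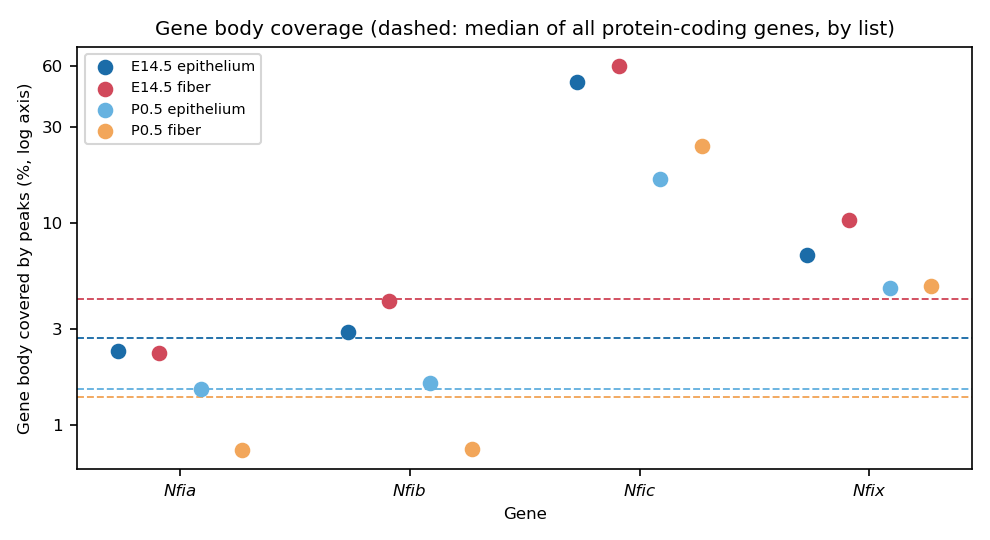
Percent of the gene body covered by peaks (log axis) of each gene in each list, with dashed lines at the median of all protein-coding genes of at least 1 kb in the list of the same colour. Nfic (16.6% to 60.2%) and Nfix (4.8% to 10.4%) lay above the medians in each list, and Nfia and Nfib lay below the median of P0.5 fiber.

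Gene body coverage was highest for Nfic. Peaks covered 50.3%, 60.2%, 16.6% and 24.3% of Nfic in E14.5 epithelium, E14.5 fiber, P0.5 epithelium and P0.5 fiber, which stood at percentiles 98.1, 97.5, 95.3 and 96.7 of all protein-coding genes of at least 1 kb. Nfix was covered to 6.96%, 10.4%, 4.8% and 4.89%. Nfib was covered to 2.88%, 4.13%, 1.62% and 0.761%, and Nfia to 2.32%, 2.27%, 1.5% and 0.751%, where the medians of all genes were 2.71%, 4.23%, 1.51% and 1.38%.

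The long genes Nfia and Nfib lay near the middle of all genes, at percentiles of 36.7 to 51.8 over the 4 lists. Coverage was lower in the P0.5 list than in the E14.5 list of the same tissue for every member, as it was for the median of all genes. Only Nfia was not covered more in E14.5 fiber than in E14.5 epithelium. The genes whose coverage over the 4 lists was most like a member's, among 9822 protein-coding genes of at least 20 kb and by the summed differences of log2 (percent covered + 0.1), were Ppp3ca, Sgk1 and Il17rd for Nfia (distances 0.24, 0.315 and 0.378) and Lipa, Acap2 and Zfp759 for Nfib (0.251, 0.34 and 0.359). They were Tcf20, Zfp367 and Bin1 for Nfix (0.236, 0.309 and 0.338) and, at larger distances, Crb2, Akt1 and Ptp4a3 for Nfic (0.848, 1.06 and 1.16).

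**Figure D4:**
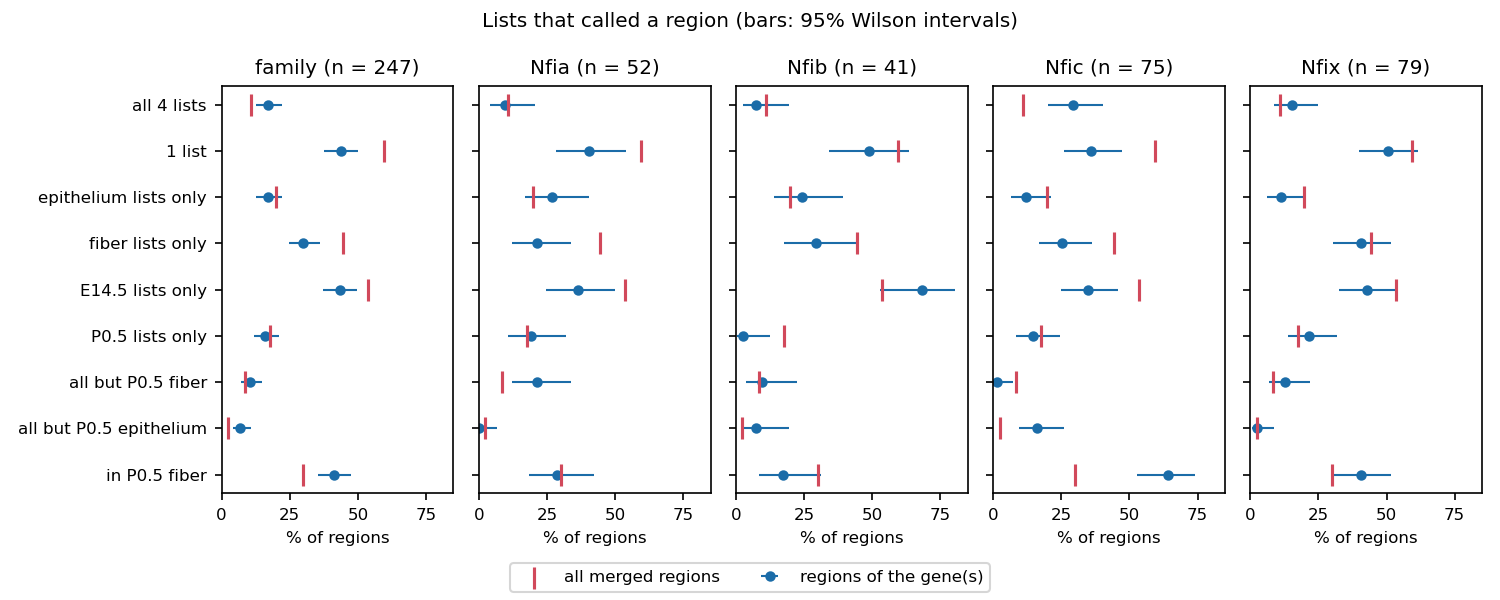
Percent of the merged regions of the family and of each gene that were called in the lists named on the vertical axis (points, with 95% Wilson intervals as bars) and the percent over all merged regions (red marks). The intervals of Nfic lay above the marks for regions in all 4 lists and in P0.5 fiber, the Nfib interval for E14.5 lists only held its mark, and the Nfia interval for every list but P0.5 fiber lay above its mark in the full lists but not with lists of equal length, where the shares were 10.3% and 9.88%.

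Across the family, 42 regions (17%, interval 12.8 to 22.2) were called in all 4 lists, against 10.9% of all merged regions, and 108 (43.7%, interval 37.7 to 50) in a single list, against 59.5%. The regions shared by all lists came mostly from Nfic (22 of 75, 29.3%) and Nfix (12 of 79, 15.2%), with 5 at Nfia and 3 at Nfib. When the regions at other genes' promoters were left out, 25 of 195 (12.8%) were called in all 4 lists. The 10.9% of all merged regions includes promoters, so this last share cannot be set against it.

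Regions of epithelium lists only numbered 42 (17%, against 19.8%), and regions of fiber lists only numbered 74 (30%, interval 24.6 to 35.9, against 44.4%). By stage, 107 (43.3%, against 53.6%) were called in E14.5 lists only and 39 (15.8%, against 17.6%) in P0.5 lists only. The share of fiber lists only was below the background mostly in regions called in E14.5 fiber alone (40 regions, 16.2%, against 29.3%), while regions called in P0.5 fiber alone (31 regions, 12.6%) were at the background of 12.6%. Regions missing only from P0.5 epithelium numbered 17 (6.88%, interval 4.34 to 10.7, against 2.42%), of which Nfic held 12, and regions missing only from P0.5 fiber numbered 26 (10.5%, against 8.42%), of which Nfia held 11.

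By position, 123 of the 247 regions lay in the body of their own gene, 114 of these with the summit of the best peak in an intron, 8 within 2 kb of an own start site, 52 at another gene's start site, 38 in another gene's body and 26 in none of these. Own promoter regions were the widest, with a median of 1590 bp, against 265 bp in the own gene body. Of the regions in the own gene body, 13 of 123 were called in all 4 lists, where all merged regions, promoters included, gave 10.9%. Regions called in more lists were wider and richer in G and C, in the family (medians of 162 bp and 54.2% for 1 list, 1587 bp and 63.2% for 4 lists) as in all merged regions (171 bp and 52%, 1177 bp and 63.5%).

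Genes described in neural tissue as targets or partners of nuclear factor I were examined by their promoters. A promoter peak was present for 10, 11, 11 and 8 of the 13 genes in the same order of lists, with median places of 6.25%, 9.45%, 10.4% and 7.65%. The shares of all protein-coding genes, given above, were 70.3%, 71.2%, 67% and 64.6%, and with 13 genes the counts are imprecise. The highest place in each list belonged to Hes1 or to Ezh2. Hes1, an effector of Notch signalling, was placed at 1.5%, 2.03%, 4.44% and 4.22%, and Ezh2, the methyltransferase of Polycomb repressive complexes, at 2.64%, 1.74%, 2.11% and 4.64%. Fabp7, a marker of radial glia, and Gabra6, a receptor subunit of cerebellar granule neurons, had no promoter peak in any list. Gfap, the intermediate filament gene of astrocytes, had promoter peaks at 9.74%, 21.4% and 27.9% in E14.5 epithelium, E14.5 fiber and P0.5 epithelium and none in P0.5 fiber.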

How the data were processed

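ATAC-seq peak lists of 4 groups (2 libraries each) were used. Per the submitters' processing notes and the study's methods, the authors trimmed the reads with Trim Galore 0.4.1, mapped them to mm10 with Bowtie2 2.3.3.1, filtered mitochondrial and duplicated reads with SAMtools 1.2 and Picard 2.1.1, and called peaks with MACS2 2.1 (q of 0.05). Depth is not given by the lists. The deposited fold enrichment is the ratio of reads at a summit to the background, used here only as a rank. The deposited −log10 p and −log10 q values ordered and filtered peaks in alternatives, and ordering by p gave the same ranks for 100% of peaks. The summit offset, as deposited, gave the distances. The deposited integer score was not used, and 0 columns stayed unassigned.

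The files' build, mm10, is the GRCm38 assembly of the RefSeq reference. Peaks off the chromosomes (302) were left out of merged regions, and no blacklist was applied. Lists were merged with bedtools 2.31.1 and counted with python 3.11.15, pandas 2.3.3, numpy 2.4.6 and scipy 1.17.1 (95% Wilson intervals). Sequence was read with pysam 0.24.0, and figures were drawn with matplotlib 3.10.9. Promoters lay within 2 kb of curated RefSeq start sites, and start sites within 500 bp formed a group. Merging, coverage, promoter places and motif searches were tested on simulated data. Named were the 4 genes, genes with a start site in a window, the 5 highest and the widest peaks per gene and list, the 3 genes of most similar coverage, and a list of 13 nuclear factor I targets. The members and lists were chosen with earlier results of these data known. Protein sequences were not analysed here.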

Additional observations from a re-analysis of the deposited data

How the results depend on the processing

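The number of regions depended on the window and on neighbouring genes. With the gene body alone, Nfic had 24 regions and Nfix 39, and 27 of 142 family regions were of epithelium lists only (19.8% of all regions) and 40 of fiber lists only (44.4%). With 20 kb on either side Nfic had 48 regions, and without regions at other promoters 44. With as many peaks per list as the shortest list holds (58592), Nfib had 22 regions and 22.4% of family regions were called in all 4 lists, against 16.4% of all regions, while without regions at other promoters that share was 12.8%. With a q value under 0.001, 43 of 200 regions were of fiber lists only, against 35.1% of all regions. The other alternatives for these counts and shares, merge distances of 0 and 100 bp included, stayed within 1.5 times the counts or inside the Wilson interval of the shares.

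Promoter places moved by over 1.5 times for 7 of 15 with predicted transcripts, for 8 of 15 with equal numbers of peaks (each of them at E14.5, the longer lists) and for 2 of 14 within 1 kb of a start site, both at Nfic, whose promoter peak in P0.5 fiber was lost. Gene body coverage moved by over 1.5 times for 3 of 16 values with equal numbers of peaks (at E14.5, Nfib 1.85% in epithelium and 2.34% in fiber, Nfix 5.56% in fiber), for 2 without the first 2 kb (at P0.5, Nfib 1% in epithelium and 0.363% in fiber) and for 1 with a q value under 0.001 (at P0.5, Nfix 2.36% in fiber), and 4 of 6 motif shares moved with a narrower and with a wider window, which holds fewer or more bases. Chosen after seeing the data, the shares of single genes were recomputed too, and the share of Nfix regions of fiber lists only was 25.9% with a q value under 0.001, against 35.1% of all regions. No paired analysis was possible because the lists pool the 2 libraries of each group, and no library could be left out for the same reason. Read depth behind each peak is unknown, and the coarse places of the P0.5 fiber list limit comparisons there.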
